A study of Rattus norvegicus with 12 samples.

Results

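The genes described here are the metallothioneins Mt1, Mt2A and Mt3, their zinc-sensing activator Mtf1, and 3 transporters that move zinc across membranes, Slc30a1, Slc39a8 and Slc39a14. They were followed in heart muscle cells of newborn rats kept in culture with DEHP, di(2-ethylhexyl) phthalate, which softens polyvinyl chloride plastics. The members were picked by gene symbol, taking probe sets with exactly 1 platform symbol. All 7 genes were found, with 9 of the 27342 probe sets on the array and 7 of its 14324 named genes. Mt1 and Mt2A were each read by a pair of probe sets and the other 5 genes by 1 probe set each. The list was drawn up knowing that Mt1 and Mt2A were high at the highest dose, so the values of the 7 genes are given as a description. No p-value is printed for them, and counts of those past the threshold stand beside the share of all genes.

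The cells came from the hearts of Sprague-Dawley rat pups aged 2 days and grew for 3 days before treatment. Treatment lasted 3 days. The groups received DEHP at 1, 10 or 50 µg/ml or no DEHP, and all 4 groups, the vehicle group included, received 0.1% DMSO (dimethyl sulphoxide) as the solvent. Each group had 3 Affymetrix arrays, 12 in all. Arrays within a group are described as biological replicates, but all cells came from 1 litter, so the spread between arrays is that between cultures of 1 litter. The cultures were made by enzymatic digestion of whole hearts, and other heart cells can remain in such cultures.

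Metallothioneins are small proteins rich in cysteine that bind zinc and copper, and that also take up toxic metals such as cadmium. When free zinc rises, the transcription factor MTF1 binds it, moves to metal response elements in promoters and activates metallothionein genes and the zinc exporter gene Slc30a1. Metallothionein genes are also known to respond to glucocorticoids, to oxidative stress and to cytokines of the IL-6 family. In the heart, metallothionein is best known for protecting muscle cells against oxidants and metals. Zinc exporters of the SLC30 family lower zinc in the cytosol, and importers of the SLC39 family raise it.

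The metallothionein genes lie side by side on rat chromosome 19 in RefSeq's GRCr8 assembly. All are on the minus strand, with Mt1 at chr19:10831959-10832975, Mt2A at chr19:10837934-10838708, Mt3 at chr19:10854676-10856080 and Mt4, a member of the family known from stratified epithelium, at chr19:10869735-10871831. The other genes lie elsewhere, with Slc39a8 at chr2:226845686-226992668, Mtf1 at chr5:142347024-142391810, Slc30a1 at chr13:106022019-106025892 and Slc39a14 at chr15:51786517-51833260. These coordinates are those of the annotation, since the array table holds gene symbols without positions.

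The 250 bases before the RefSeq start site were searched on both strands for the core of the metal response element, TGCACNC or TGCGCNC. A window was matched for 6 of the 7 genes, and Slc39a14 was the gene without one. The windows of Mt1, Mt2A, Mt3 and Slc30a1 are shown because these genes are known MTF1 targets or relatives of them, and because Mt1 and Mt2A on one side and Mt3 on the other differed so much in the arrays. Each is written 5′ to 3′ on the strand of the gene, with the core matches in capitals. They are Mt1 at chr19:10832976-10833225 (minus strand), Mt2A at chr19:10838709-10838958 (minus strand), Mt3 at chr19:10856081-10856330 (minus strand) and Slc30a1 at chr13:106021769-106022018 (plus strand), all RefSeq sequence of GRCr8.
Mt1: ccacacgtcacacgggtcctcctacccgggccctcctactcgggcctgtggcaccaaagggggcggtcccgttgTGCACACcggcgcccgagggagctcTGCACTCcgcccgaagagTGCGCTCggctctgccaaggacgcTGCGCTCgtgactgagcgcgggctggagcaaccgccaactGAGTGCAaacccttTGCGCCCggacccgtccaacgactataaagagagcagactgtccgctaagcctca
Mt2A: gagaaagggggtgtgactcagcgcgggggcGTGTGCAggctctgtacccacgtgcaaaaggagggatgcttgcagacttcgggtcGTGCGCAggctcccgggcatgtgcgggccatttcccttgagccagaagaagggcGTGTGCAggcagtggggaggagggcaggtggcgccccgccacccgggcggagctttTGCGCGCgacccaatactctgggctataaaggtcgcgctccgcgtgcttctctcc
Mt3: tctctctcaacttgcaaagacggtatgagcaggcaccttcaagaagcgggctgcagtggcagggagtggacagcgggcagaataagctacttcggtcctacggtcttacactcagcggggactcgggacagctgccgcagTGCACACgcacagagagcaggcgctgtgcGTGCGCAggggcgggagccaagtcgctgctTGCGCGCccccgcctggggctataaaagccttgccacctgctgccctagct
Slc30a1: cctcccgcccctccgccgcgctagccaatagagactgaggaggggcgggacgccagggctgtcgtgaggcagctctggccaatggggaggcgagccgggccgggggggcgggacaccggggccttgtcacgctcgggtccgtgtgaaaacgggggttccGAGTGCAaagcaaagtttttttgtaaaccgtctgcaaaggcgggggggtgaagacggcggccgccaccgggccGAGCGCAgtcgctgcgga

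Mt1 held 6 core matches, Mt2A held 4 and Mt3 held 3. Mtf1 and Slc30a1 held 2 each, Mt4 held 1 and Slc39a8 held 0. Of all 33469 RefSeq windows of the same length, 20.6% held at least 1 match, 4.9% at least 2, 1.17% at least 3, 0.266% at least 4 and 0.0269% at least 6. The match nearest the start ran from position -55 to -49 in both Mt1 and Mt2A and from -51 to -45 in Mt3, counted from the start site. No match overlapped another, or any of the other 3 motifs searched, in these windows. The window of Slc39a8, at chr2:226929941-226930190, lies wholly inside the annotated gene, far from its start at 226845686. Its 0 matches therefore do not describe the bases before the annotated gene start. The window of Mtf1, at chr5:142346804-142347053, spans the annotated gene start at 142347024.

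**Figure D1:**
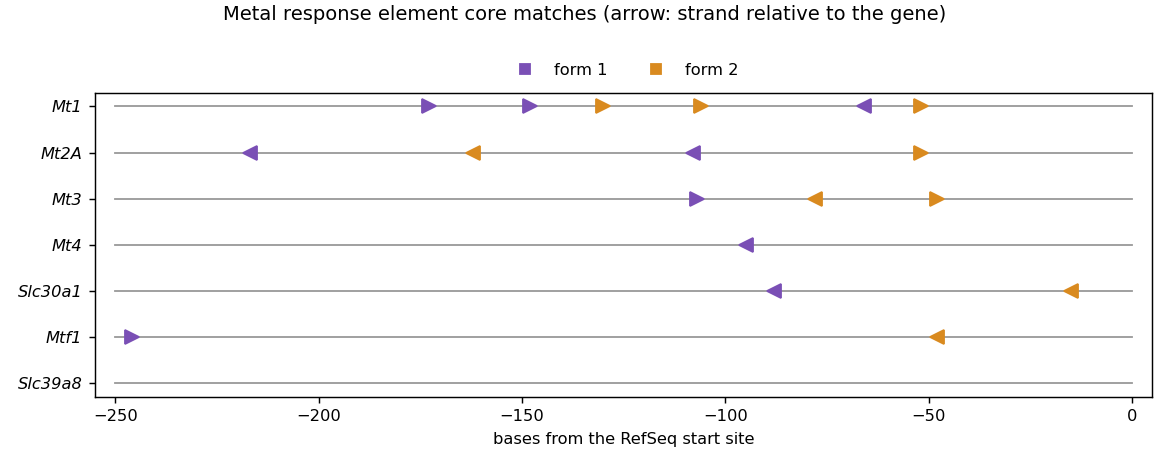
Positions of metal response element core matches in the 250 bases before the RefSeq start site (horizontal axis, bases from the start site), with one line per gene and purple for TGCACNC (form 1) and orange for TGCGCNC (form 2); arrows give the strand relative to the gene. Mt1 holds 6 matches, Mt2A 4 and Mt3 3, whereas Slc39a8 holds 0 in a window that lies inside its annotated gene.

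The antioxidant response element core TGACNNNGC was present in 10.1% of all windows. It occurred once in the windows of Mt1, Mt2A, Slc30a1 and Slc39a8, at 2 places in Mtf1 and not in Mt3. The palindromic glucocorticoid response element was present in 0.373% of all windows and had 0 matches in the 6 windows of the members. The STAT site TTCNNNGAA was present in 7.67% of windows and, among the members, in that of Slc39a8 alone. These matches describe letters in a window of 250 bases and say nothing of binding in these cells.

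Expression values are log2 of the deposited ratio, which sets each array against the median array of that probe set. A value of 0 is therefore the median array, and the level of a gene cannot be compared with that of another gene. The array was assumed to be the numerator, a direction that the sources used here do not record. If it were the denominator, each higher value would be a lower one of the same size. Distance from background was not analysed here. The array medians lay between 0.994 and 1.01, and the median residual SD of a gene was 0.0822 on the log2 scale. Differences between groups were fitted with limma over all 12 arrays, and a gene passed where its Benjamini-Hochberg adjusted p over the 14324 genes was under 0.05.

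The cultures differed in the markers of their cells at 50 µg/ml, most of all in those of macrophages and leukocytes. At that dose 17.6% of all genes passed the threshold, 8.75% as higher. By limma, 17 of 20 macrophage and leukocyte markers fell (list median -1.10), with median log2 ratios of -0.97 to -0.87 in the arrays at 50 µg/ml against 0.16 to 0.21 in the vehicle arrays. Of 14 cardiomyocyte markers 8 rose and 1 fell (list median 0.21), and of 10 endothelial markers 5 rose and 1 fell (list median 0.25). Of 8 epicardial and mesothelial markers 4 rose (list median 0.30). Fibroblast markers rose in 2 and fell in 2 of 14 cases. Smooth muscle and pericyte markers rose in 2 and fell in 4 of 9. Of 6 erythroid markers 1 rose and 0 fell, where 8.75% of all genes rose and 17.6% passed in either direction. At 1 µg/ml 4.24% of all genes passed, 1.74% as lower. There 3 of 20 macrophage, 3 of 10 endothelial and 3 of 14 fibroblast markers fell and 1 of 14 cardiomyocyte markers rose. The endothelial array medians ran from -0.43 to -0.18 at 1 µg/ml and from -0.03 to 0.04 in the vehicle. They ran from -0.17 to 0.10 at 10 µg/ml and from 0.21 to 0.30 at 50 µg/ml. Between 50 and 1 µg/ml 8 of the 10 endothelial markers rose and 1 fell, where 24.9% of all genes passed. In such bulk samples fewer cells of a type and less RNA per cell cannot be told apart. The part of these shifts in the metallothionein values was not tested.

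Mt1 and Mt2A stood far above every other group at 50 µg/ml and slightly below the vehicle at 1 µg/ml. The log2 ratio of Mt1, the main inducible metallothionein of many tissues, was -0.14, -0.02 and 0.04 in the vehicle arrays, -0.22, -0.37 and -0.37 at 1 µg/ml, -0.09, 0.28 and 0.02 at 10 µg/ml, and 1.75, 1.72 and 1.88 at 50 µg/ml. The 3 arrays at 50 µg/ml lay above all other 9 arrays, those at 1 µg/ml lay below all others, and those at 10 µg/ml overlapped the vehicle. Group means were -0.04 ± 0.09 (SD, n = 3) in the vehicle, -0.32 ± 0.08 at 1 µg/ml, 0.07 ± 0.19 at 10 µg/ml and 1.78 ± 0.08 at 50 µg/ml. Set against the vehicle, Mt1 differed by 1.82 ± 0.09 (SE; 95% interval 1.63 to 2.01) at 50 µg/ml, a 3.53-fold higher value. The difference was -0.28 ± 0.09 (-0.47 to -0.10) at 1 µg/ml and 0.11 ± 0.09 (-0.08 to 0.29) at 10 µg/ml. From lowest to highest, the order of the group means was 1 µg/ml, vehicle, 10 µg/ml and 50 µg/ml, and the vehicle and 10 µg/ml did not differ beyond their spread.

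Mt2A, the other widely expressed metallothionein, followed the same order of group means. Its log2 ratio was -0.36, -0.06 and 0.00 in the vehicle arrays, -0.48, -0.59 and -0.55 at 1 µg/ml, 0.00, 0.29 and 0.11 at 10 µg/ml, and 1.44, 1.30 and 1.58 at 50 µg/ml. The arrays at 50 µg/ml were again above all others and those at 1 µg/ml below all others, while 1 vehicle array came close to the latter. Means were -0.14 ± 0.19 (SD, n = 3), -0.54 ± 0.06, 0.13 ± 0.15 and 1.44 ± 0.14 in order of dose. Against the vehicle, Mt2A was higher by 1.58 ± 0.10 (SE; 1.36 to 1.79) at 50 µg/ml, which is 2.98-fold, and differed by -0.40 ± 0.10 (-0.62 to -0.18) at 1 µg/ml, 1.32-fold lower. At 10 µg/ml it differed by 0.27 ± 0.10 (0.05 to 0.49), with arrays that overlapped the vehicle.

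Among the 14324 genes, the difference of Mt1 from the vehicle at 50 µg/ml ranked 5 from the highest and that of Mt2A ranked 7. At 1 µg/ml Mt2A ranked 83 and Mt1 ranked 247 from the lowest. Slc39a8 and Slc30a1 ranked 783 and 1363 from the highest at 50 µg/ml. All doses share the same 3 vehicle arrays, so the comparisons with the vehicle are not independent of one another.

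**Figure D2:**
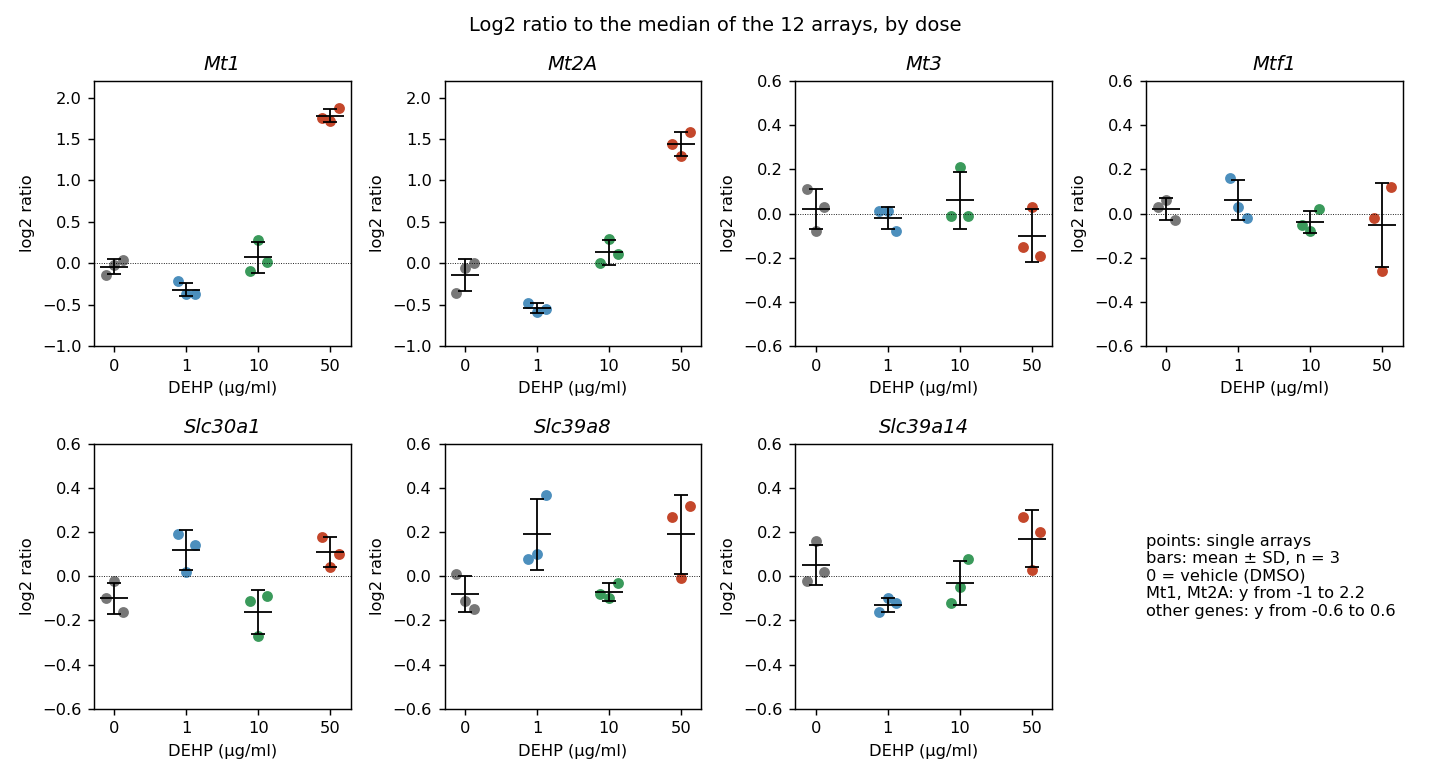
Log2 ratio to the median of the 12 arrays (vertical axis) by DEHP dose in µg/ml (horizontal axis, 0 is the vehicle) for the 7 genes; points are arrays and the bars give the mean ± SD of 3 arrays. Mt1 and Mt2A have a wider axis than the other genes, and their arrays at 50 µg/ml run from 1.72 to 1.88 and from 1.30 to 1.58.

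The probe sets of a gene can be set against each other because each was centred in the same way. The probe sets of Mt1 (10796411 and 10809392) differed by at most 0.07 in any of the 12 arrays, and at 50 µg/ml they lay 1.78 ± 0.09 and 1.86 ± 0.09 (SE) above the vehicle. Those of Mt2A (10809399 and 10827989) were closer at the lower doses than at 50 µg/ml. There the first read 0.26 to 0.47 less than the second in each of the 3 arrays, with differences from the vehicle of 1.39 ± 0.10 and 1.77 ± 0.12. At 1 µg/ml the 2 probe sets of Mt2A gave -0.43 and -0.38. Both probe sets of each gene thus had the same direction at 1 and 50 µg/ml. Whether a probe set also detects a near-identical metallothionein copy was not analysed here.

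**Figure D3:**
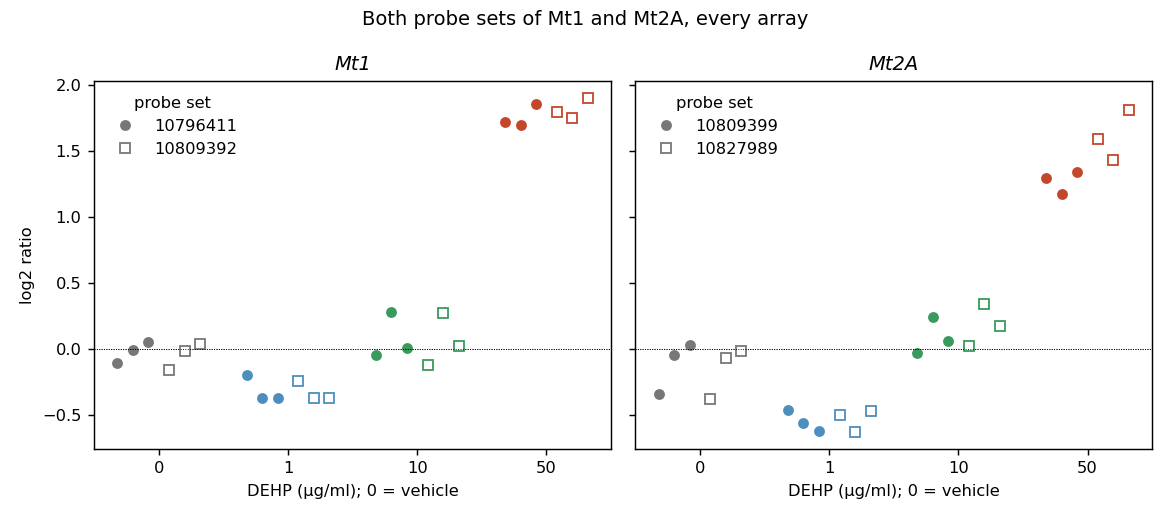
Log2 ratio of both probe sets of Mt1 (left) and Mt2A (right) in each of the 12 arrays (vertical axis) by DEHP dose in µg/ml (horizontal axis); circles and squares are the 2 probe sets. The Mt1 probe sets lie within 0.07 of each other, and the Mt2A probe sets part by 0.26 to 0.47 at 50 µg/ml.

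The gap between Mt1 and Mt2A within an array removes what is common to both. The log2 ratio of Mt1 minus that of Mt2A was 0.22, 0.04 and 0.04 in the vehicle arrays, 0.26, 0.22 and 0.18 at 1 µg/ml, -0.08, -0.01 and -0.10 at 10 µg/ml, and 0.31, 0.42 and 0.30 at 50 µg/ml. All 3 arrays at 10 µg/ml lay below all others, and those at 50 µg/ml lay above all others. The gap averaged 0.10 ± 0.11 (SD, n = 3), 0.22 ± 0.04, -0.06 ± 0.05 and 0.34 ± 0.07 in order of dose, against shifts of both genes at 50 µg/ml that were several times as large. The separation of the groups depended on the Mt2A probe set. Against 10827989 alone the gap was 0.16, 0.29 and 0.07 at 50 µg/ml and 0.25, 0.05 and 0.06 in the vehicle, which overlap. Against 10809399 alone the arrays at 10 µg/ml (-0.06, 0.04 and -0.04) overlapped the vehicle (0.20, 0.03 and 0.02).

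Mt3, the metallothionein known from neurons, did not share the pattern. Its log2 ratio was 0.11, -0.08 and 0.03 in the vehicle arrays, 0.01, 0.01 and -0.08 at 1 µg/ml, -0.01, 0.21 and -0.01 at 10 µg/ml, and -0.15, 0.03 and -0.19 at 50 µg/ml. The arrays of every dose overlapped those of the vehicle. At 50 µg/ml the difference from the vehicle was -0.12 ± 0.08 (SE; -0.29 to 0.04), an interval that lies below the differences of Mt1 and Mt2A. Mt4 also lay close to the vehicle, at 0.07 ± 0.04 (SE).

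The genes that flank the metallothionein cluster were read in the same fit, since position was not used to choose the members. Of the 5 protein-coding genes on each side, 7 of 10 were measured. At 50 µg/ml 1 of the 7 passed the threshold, where 17.6% of all genes did. This was Gnao1, a G protein alpha subunit, which rose by 0.37 ± 0.08 (SE, limma adjusted p = 0.00564). The values of the others were 0.12 for Herpud1, a protein of endoplasmic reticulum quality control, 0.06 for the sodium chloride cotransporter gene Slc12a3, -0.01 for the nuclear pore gene Nup93, -0.08 for the ciliary gene Bbs2, -0.20 for the hydroxylase gene Ogfod1 and 0.08 for the cleavage factor gene Nudt21. At 1 µg/ml, where 4.24% of all genes passed, Herpud1 alone among the 7 passed and fell by 0.26 ± 0.05 (limma adjusted p = 0.0134), while Bbs2 stood at 0.33. The call of Herpud1 was lost without vehicle replicate 2, without vehicle replicate 3 and without replicate 1 of 1 µg/ml, with values between -0.288 and -0.218 over all alternatives.

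**Figure D4:**
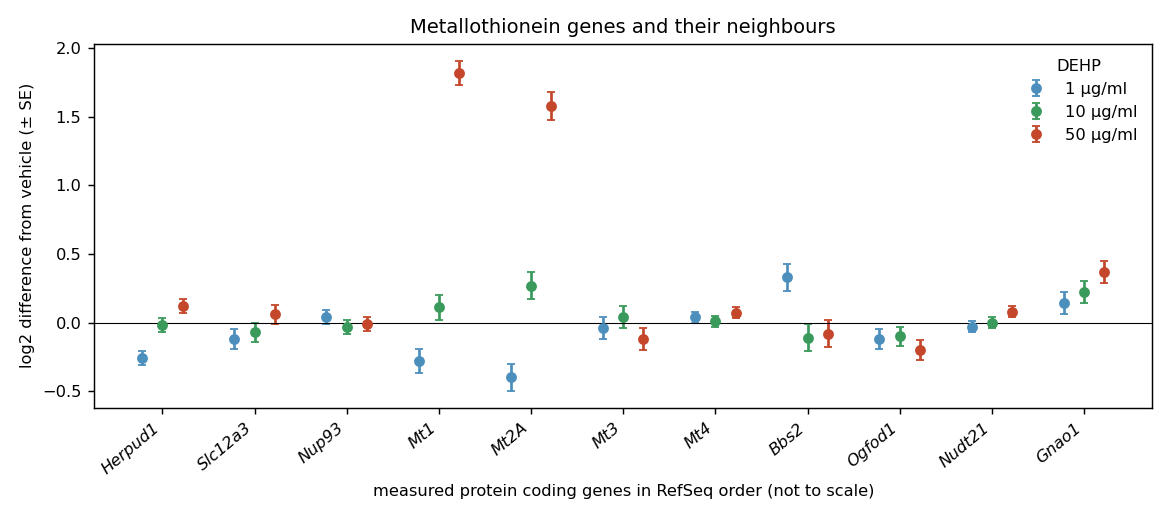
Difference from the vehicle in log2 ratio ± SE (vertical axis) at 1, 10 and 50 µg/ml for the metallothionein genes and their measured protein-coding neighbours, in RefSeq gene order (horizontal axis, not to scale; n = 3 arrays per group). Mt1 (1.82) and Mt2A (1.58) at 50 µg/ml stand above the neighbours, which lie between -0.20 and 0.37 at that dose.

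Mtf1, the zinc sensor that activates metallothionein transcription, varied little between groups. Its log2 ratio was 0.03, 0.06 and -0.03 in the vehicle arrays, 0.16, 0.03 and -0.02 at 1 µg/ml, -0.05, -0.08 and 0.02 at 10 µg/ml, and -0.02, -0.26 and 0.12 at 50 µg/ml. Arrays of every dose overlapped those of the vehicle, and the spread was widest at 50 µg/ml. The difference from the vehicle at that dose was -0.07 ± 0.08 (SE; -0.25 to 0.10). The array measures the Mtf1 transcript and not the activity of the protein.

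Slc30a1, the plasma membrane zinc exporter, was slightly higher at 1 and at 50 µg/ml but not at 10 µg/ml. Its log2 ratio was -0.10, -0.02 and -0.16 in the vehicle arrays, 0.19, 0.02 and 0.14 at 1 µg/ml, -0.11, -0.27 and -0.09 at 10 µg/ml, and 0.18, 0.04 and 0.10 at 50 µg/ml. The 6 arrays at 1 and 50 µg/ml all lay above the 6 arrays of the vehicle and 10 µg/ml, and within each of these sets the 2 groups overlapped. Differences from the vehicle were 0.21 ± 0.07 (SE; 0.07 to 0.35) at 1 µg/ml, -0.06 at 10 µg/ml and 0.20 ± 0.07 (0.06 to 0.35) at 50 µg/ml.

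Slc39a8, an importer of zinc, manganese and iron, had a similar shape with wider spread. Its log2 ratio was 0.01, -0.11 and -0.15 in the vehicle arrays, 0.08, 0.10 and 0.37 at 1 µg/ml, -0.08, -0.10 and -0.03 at 10 µg/ml, and 0.27, -0.01 and 0.32 at 50 µg/ml. The arrays at 1 µg/ml lay above the vehicle, whereas replicate 2 of 50 µg/ml lay below the highest vehicle array. The differences were 0.27 ± 0.09 (SE; 0.07 to 0.47) at 1 µg/ml, 0.01 at 10 µg/ml and 0.28 ± 0.09 (0.08 to 0.48) at 50 µg/ml.

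Slc39a14, an importer of zinc, iron and manganese that is induced in inflammation, was lowest at 1 µg/ml and highest at 50 µg/ml. Its log2 ratio was -0.02, 0.16 and 0.02 in the vehicle arrays, -0.16, -0.10 and -0.12 at 1 µg/ml, -0.12, -0.05 and 0.08 at 10 µg/ml, and 0.27, 0.03 and 0.20 at 50 µg/ml. The arrays at 1 µg/ml lay below those of the vehicle, and the other doses overlapped the vehicle. Differences were -0.18 ± 0.07 (SE; -0.34 to -0.02) at 1 µg/ml, -0.08 at 10 µg/ml and 0.11 ± 0.07 (-0.04 to 0.27) at 50 µg/ml. Between 50 and 1 µg/ml the difference was 0.29 ± 0.07 (0.14 to 0.45).

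At 50 µg/ml against the vehicle, 3 of the 7 genes (Mt1, Mt2A and Slc30a1) passed the threshold, all higher, where 8.75% of all genes passed as higher and 17.6% in either direction. At 1 µg/ml 1 of the 7 passed (Mt2A, lower), against 1.74% of all genes as lower and 4.24% in either direction. At 10 µg/ml 0 of the 7 and 0 of all genes passed in limma, while 899 genes had an unadjusted p under 0.05. The arrays of the 2 groups did not overlap for 5 of the 7 genes at 1 µg/ml (30.8% of all genes), 0 at 10 µg/ml (11.2%) and 3 at 50 µg/ml (36.0%). Over the 7 genes the median difference was -0.04, 0.01 and 0.20 in order of dose, and that of all genes lay between -0.0057 and 0.018. These contrasts served to choose the members, so nothing is read from the counts.

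Slc30a1 sat at the edge of the threshold at 50 µg/ml. It passed in 8 of 19 alternatives and lost its call without vehicle replicate 1 (0.199) or 3 (0.169), without replicate 1 (0.167), 2 (0.236) or 3 (0.208) of 50 µg/ml, and without replicate 1 or 3 of 1 µg/ml or replicate 1 of 10 µg/ml (each 0.204). Median centring (0.196), robust moderation (0.204) and probe sets tested one by one (0.204) also ended it. Slc39a8 did not pass at that dose but did so in 6 of 19 alternatives. Mt2A at 1 µg/ml passed in 12 of 20. Its call was lost without vehicle replicate 2 (-0.361) or 3 (-0.331), without replicate 1 (-0.431), 2 (-0.375) or 3 (-0.399) of 1 µg/ml, and without replicate 1 of 50 µg/ml (-0.401). It was also lost with quantile normalization again (-0.383) and for probe set 10827989 alone (-0.378). Mt1 and Mt2A at 50 µg/ml passed in 20 of 20 alternatives, with values from 1.18 to 1.86 for Mt1 and from 1.15 to 1.77 for Mt2A, the lowest with quantile normalization applied again.

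The doses were also compared with each other. Between 50 and 10 µg/ml Mt1 was 3.28-fold and Mt2A 2.47-fold higher at the higher dose, and Slc30a1 was higher by 0.27 ± 0.07 (SE). With quantile normalization again the log2 differences were 1.08 in place of 1.71 for Mt1 and 0.77 in place of 1.31 for Mt2A. These 3 genes passed, against 14.6% of all genes. Between 50 and 1 µg/ml Mt1 was 4.3-fold and Mt2A 3.94-fold higher, and they passed together with Slc39a14, against 24.9% of all genes. Between 10 and 1 µg/ml Mt1 was 1.31-fold and Mt2A 1.59-fold higher at 10 µg/ml, whereas Slc30a1 fell by 0.27 ± 0.07. These 3 genes passed, against 14.0% of all genes. Without replicate 1 of 50 µg/ml Slc30a1 lost its call against 10 µg/ml (0.231). Between 10 and 1 µg/ml it lost its call without replicate 1 (-0.238) or 3 (-0.261) of 1 µg/ml and without replicate 2 of 10 µg/ml (-0.217), and Mt1 lost its call without replicate 3 of 1 µg/ml (0.365). Fits with only the groups compared also ended the calls of Slc30a1 between 50 and 10 µg/ml and of Slc30a1 and Mt1 between 10 and 1 µg/ml. Measured from 1 µg/ml, both metallothioneins were thus higher at 10 and again at 50 µg/ml. By group mean the vehicle lay between 1 and 10 µg/ml. Against the vehicle, however, neither gene passed at 10 µg/ml, where the arrays overlapped, and Mt1 did not pass at 1 µg/ml.

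The remaining zinc transporters showed small changes in both directions. Of the 21 others measured, 0 passed at either of the lower doses. At the highest dose 3 rose and 2 fell, with a list median of 0.05 against 0.02 over all genes and 17.6% of genes past the threshold. The vesicular exporter Slc30a3 rose by 0.26 ± 0.07 (SE, limma adjusted p = 0.02), the importer Slc39a10 by 0.29 ± 0.08 (adjusted p = 0.0236) and the importer Slc39a2 by 0.26 ± 0.08 (adjusted p = 0.0424). The Golgi transporter Slc39a13 fell by 0.17 ± 0.05 (adjusted p = 0.0214) and the importer Slc39a6 by 0.19 ± 0.06 (adjusted p = 0.0486). All 24 transporters, the 3 members included, lay between -0.27 (Slc30a9) and 0.29 (Slc39a10) at that dose, a range several times smaller than the difference of Mt1. Each of these 5 calls was lost when at least 1 of the arrays was left out. Of 18 alternatives, Slc39a10 and Slc39a13 each passed in 15, Slc30a3 in 14, Slc39a2 in 10 and Slc39a6 in 6. The importers past the threshold numbered 2 in place of 4 with quantile normalization again, and also with probe sets tested one by one. Without vehicle replicate 3, 0 of the 9 exporters and 0 of the 12 importers outside the members passed, and without vehicle replicate 2 the counts were 0 and 1. Without replicate 2 of 50 µg/ml they were 0 and 2. The exporters numbered 2 without replicate 2 of 10 µg/ml. The importers numbered 1 without replicate 1 of 50 µg/ml and 2 without replicate 3 of 50 µg/ml or replicate 1 of 1 µg/ml.

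**Figure D5:**
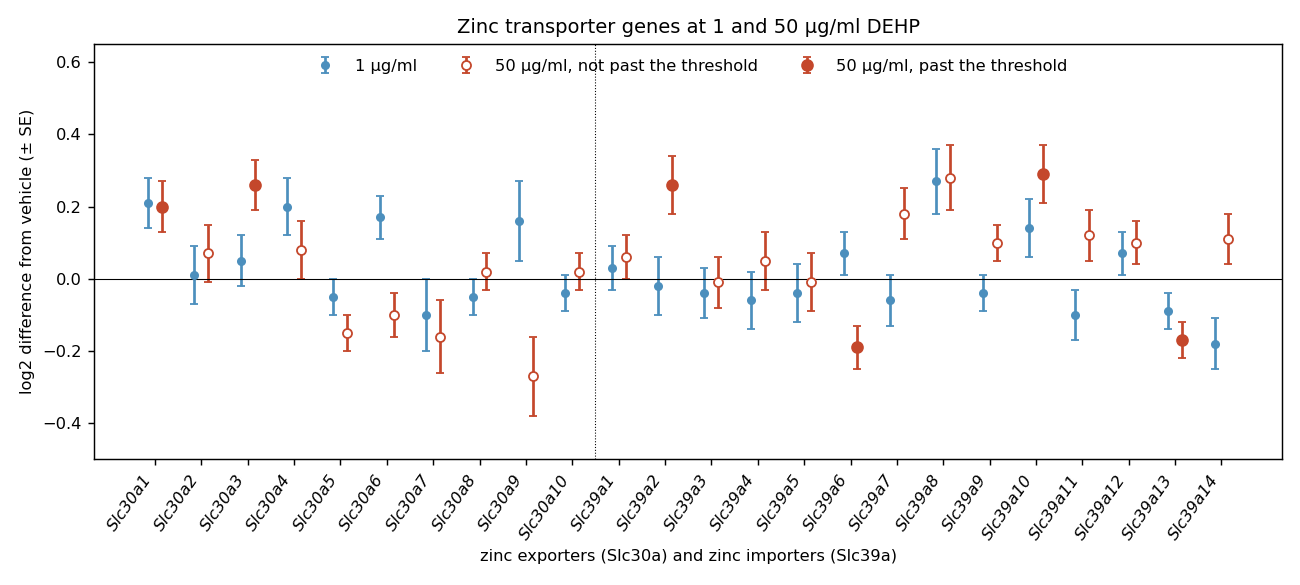
Difference from the vehicle in log2 ratio ± SE (vertical axis) at 1 and 50 µg/ml for 24 zinc transporter genes (horizontal axis, exporters left of the dotted line and importers right of it; n = 3 arrays per group). Filled symbols at 50 µg/ml passed the threshold, and every value at that dose lies between -0.27 and 0.29.

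Among other genes that MTF1 is known to regulate, some rose and some fell. The list does not separate genes that MTF1 activates from genes that it represses, so a rise is not read as activation by MTF1. Of 8 measured at 50 µg/ml, 1 rose and 2 fell, with a median of 0.05, where 17.6% of all genes passed and 8.75% rose. The riser was the importer Slc39a10, counted above as well. Slc40a1, the iron exporter ferroportin, fell by 0.28 ± 0.05 (SE, limma adjusted p = 0.00365), and the hypoxia-responsive gene Ndrg1 fell by 0.39 ± 0.12 (adjusted p = 0.04). The call of Ndrg1 was lost with quantile normalization again, without any 1 array of the vehicle or of 50 µg/ml and without replicate 2 of 1 µg/ml, with values from -0.446 to -0.301 over the alternatives. Slc40a1 read 0.23, 0.25 and 0.24 at 1 µg/ml, against -0.01, 0.04 and 0.05 in the vehicle and -0.26, -0.32 and -0.16 at 50 µg/ml. Its arrays were thus highest at 1 µg/ml and lowest at 50 µg/ml, the reverse of Mt1 and Mt2A at these doses, and its difference between 50 and 1 µg/ml was -0.49 ± 0.05 (adjusted p = 6.32e-05). Against the vehicle at 1 µg/ml Slc40a1 did not pass (0.21 ± 0.05, adjusted p = 0.0506). Only 1 of the 8 passed at 50 µg/ml without vehicle replicate 3, without replicate 1 of 50 µg/ml or without replicate 3 of 50 µg/ml. Macrophages are known for high Slc40a1, and the macrophage markers fell at 50 µg/ml. At 1 µg/ml the list median of these markers was -0.26, and 3 of 20 passed as lower. Slc40a1 lay 0.21 above the vehicle at that dose. The part of macrophages in the Slc40a1 values was not tested.

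Copper and iron genes moved in both directions. Of 13 copper-handling genes, 1 rose and 2 fell at 50 µg/ml, where 17.6% of all genes passed, with a median of 0.03. The metalloreductase Steap4, which reduces copper and iron for uptake, read 0.62, 0.53 and 1.05 at 50 µg/ml against -0.05, -0.01 and -0.07 in the vehicle, and rose by 0.77 ± 0.12 (SE, limma adjusted p = 0.000696). The copper ferroxidase ceruloplasmin, Cp, read -0.33, -0.63 and -0.41 against 0.08, 0.02 and 0.15, and fell by 0.54 ± 0.09 (adjusted p = 0.000918). For both genes no array at 50 µg/ml overlapped the vehicle. The copper pump Atp7a fell by 0.26 ± 0.07 (adjusted p = 0.0277), a call lost without vehicle replicate 1 or 2 and without replicate 2 or 3 of 50 µg/ml, with values from -0.335 to -0.195 over the alternatives. Of 16 iron-handling genes, Slc40a1 fell and the ferritin light chain Ftl1 rose by 0.17 ± 0.05 (adjusted p = 0.0264), with a median of 0.02. The call of Ftl1 was lost with quantile normalization again, without any 1 of the vehicle arrays and without replicate 3 of 50 µg/ml, with values from 0.141 to 0.178 over the alternatives. The iron count was 1 without vehicle replicate 2 or replicate 3 of 50 µg/ml and 4 without replicate 2 of 10 µg/ml.

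Gene lists for the other known inducers of metallothionein were read in the same way. At 50 µg/ml 4 of 19 NRF2 targets rose and 0 fell (median 0.09), among them heme oxygenase Hmox1 by 0.65 ± 0.06 (SE, limma adjusted p = 1.11e-05), sulfiredoxin Srxn1 by 0.45 ± 0.04 (adjusted p = 1.63e-05) and the efflux pump Abcc4 by 0.27 ± 0.05 (adjusted p = 0.00267). Of 13 heat shock and metal stress genes 4 rose and 0 fell (median 0.13), including the cochaperone Bag3 by 0.48 ± 0.05 (adjusted p = 5.03e-05), Hsph1 by 0.30 ± 0.06 (adjusted p = 0.00484) and Hspb8 by 0.31 ± 0.07 (adjusted p = 0.00526). At 50 µg/ml against the vehicle these lists had risers and no faller, with 8.75% of all genes rising. At 1 µg/ml the median was 0.12 in each of these lists, against -0.0034 over all genes. There 1 of the 19 NRF2 targets rose past the threshold and 0 of the 13 heat shock and metal stress genes passed. Of all genes 4.24% passed at that dose. Between 50 and 1 µg/ml 4 NRF2 targets rose and 1 fell, and 2 heat shock and metal stress genes rose and 2 fell. In that comparison 24.9% of all genes passed. Any link of these lists to the metallothionein values was not tested.

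The glucocorticoid and IL-6 lists moved in both directions. Of 13 glucocorticoid-responsive genes 5 rose and 3 fell (median 0.09), where 17.6% of all genes passed and 8.75% rose. The clock gene Per1 rose by 0.64 ± 0.06 (SE, limma adjusted p = 1.14e-05) and the cell cycle inhibitor Cdkn1c by 0.53 ± 0.05 (adjusted p = 1.97e-05), whereas Ddit4, an inhibitor of mTOR signalling, fell by 1.12 ± 0.11 (adjusted p = 1.58e-05). Of 16 IL-6 and STAT3 genes 7 rose and 2 fell (median 0.15). The kinase gene Pim1 rose by 0.67 ± 0.06 (adjusted p = 9.92e-06), while the feedback inhibitor Socs3 fell by 0.67 ± 0.05 (adjusted p = 1.06e-06) and the protease inhibitor A2m by 2.51 ± 0.24 (adjusted p = 1.68e-05). These 3 genes had the smallest p, and hold 1 of the 7 risers and the 2 fallers. The largest rise in the list was that of the lipocalin gene Lcn2, by 1.27 ± 0.13 (adjusted p = 2.66e-05). Per1 and Ddit4, or Pim1 and Socs3, thus went opposite ways within a list. Over the 116 pathway and inducer genes measured, 25 rose and 11 fell at 50 µg/ml with a median of 0.07, against 0.02 over all genes.

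The lists were also read at the lower doses. At 1 µg/ml 5 of the 116 rose and 2 fell, where 4.24% of all genes passed. An unadjusted limma p under 0.05 was found for 35 of the 116, a larger share than the 20.2% of all genes. Of the NRF2 list Srxn1 rose by 0.20 ± 0.04 (SE, limma adjusted p = 0.0275), a call lost without any 1 of the 3 vehicle arrays and without replicate 1 or 3 of 1 µg/ml, with values from 0.174 to 0.238 over the alternatives. In the glucocorticoid list 5 of 13 passed. Of these 4 rose and 1, Ddit4, fell by 1.17 ± 0.11 (adjusted p = 0.000208), and in the IL-6 list Socs3 fell by 0.72 ± 0.05 (adjusted p = 2.32e-05). The 4 risers were Klf9 (0.35), Dusp1 (0.60), Sgk1 (0.35) and Pdk4 (0.53). At 50 µg/ml Klf9 (0.48) and Dusp1 (0.39) were again higher, Sgk1 was lower (-0.30) and Pdk4 (-0.25) did not pass. Ddit4 and Socs3 fell at both 1 and 50 µg/ml. Any link of these genes to the values of Mt1 and Mt2A was not tested. At 10 µg/ml Ddit4 and Socs3 differed from the vehicle by only 0.03 and -0.08, and between 50 and 1 µg/ml by 0.06 and 0.04. The vehicle and 10 µg/ml thus stood apart from 1 and 50 µg/ml, as they did for Slc30a1. Whether this split follows the dose or another difference between the cultures was not tested. At 10 µg/ml 0 of the 116 passed in limma, and 9 had an unadjusted p under 0.05, where 6.28% of all genes did.

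Genes were finally ranked by how closely their 12 values followed the mean of Mt1 and Mt2A. Pearson's r is given as a description, since the 3 arrays at 50 µg/ml stand apart and set most of it, and all genes share the same arrays. Of 14317 genes outside the list, 233 had an r over 0.9 and 177 an r under -0.9. The closest were Acod1 (r = 0.99), which makes itaconate, the lysosomal channel Mcoln1 (0.99), Pirt (0.99), the carboxypeptidase Cpz (0.98), the axonal motor Kif1a (0.98) and the chemokine Cxcl16 (0.98). Over the 9 arrays without 50 µg/ml the r was 0.92 for Acod1, 0.88 for Mcoln1, 0.80 for Pirt, 0.79 for Cpz, 0.83 for Kif1a and 0.72 for Cxcl16.

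Acod1, chosen for its r over these same arrays, read -0.05, -0.02 and 0.11 in the vehicle, -0.11, -0.25 and -0.20 at 1 µg/ml, -0.04, 0.08 and 0.02 at 10 µg/ml, and 0.59, 0.65 and 0.65 at 50 µg/ml. Its arrays at 1 µg/ml were the lowest and those at 50 µg/ml the highest, and its difference from the vehicle was -0.20 ± 0.06 (SE) at 1 µg/ml, which did not pass the threshold, and 0.62 ± 0.06 at 50 µg/ml. Of the 6 genes named for a high r, Cpz had the largest difference at 50 µg/ml, 1.40 ± 0.07.

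The most opposite genes were Fndc1 (r = -0.99), the retinaldehyde dehydrogenase Aldh1a1 (-0.98), Net1 (-0.98) and Cytip (-0.98), a cytohesin-binding protein of leukocytes. Without 50 µg/ml their r was -0.89, -0.88, -0.83 and -0.95. Aldh1a1 read 0.14, 0.06 and 0.10 in the vehicle, 0.59, 0.67 and 0.63 at 1 µg/ml, -0.20, -0.07 and -0.06 at 10 µg/ml, and -1.49, -1.42 and -1.40 at 50 µg/ml. Its order of doses was the reverse of that of Mt1 and Mt2A, with no overlap between neighbouring groups. Of the other members, Slc39a14 had an r of 0.73 to the metallothionein mean, Slc39a8 of 0.31, Slc30a1 of 0.27, Mtf1 of -0.31 and Mt3 of -0.43.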

How the data were processed

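For each of 12 cultures, biotinylated cRNA was made from 5 µg of total RNA and hybridised to an Affymetrix array. RMA (background correction, quantile normalization and probe summary) was used, per the submitters' processing notes, in a version not given in the sources used here. What the authors deposited is a linear ratio per probe set between an array and the median of all arrays (from the values: every log midpoint was 0 within 1e-06). The midpoint does not show the direction, which was assumed. Ratios were converted to log2. Of the probe sets, 15097 had 1 symbol, 323 several and 11922 none, and the Entrez lookup found 15067 in RefSeq and changed 0 symbols. A gene is the mean of its probe sets (499 genes have several).

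The limma package (3.58.1, R 4.3.3) fitted group means to all 12 arrays with 8 residual degrees of freedom, two-sided, with Benjamini-Hochberg adjustment over 14324 genes and a threshold of 0.05. The fit was tested on simulated data. With 3 arrays a group, an exact permutation test cannot go below 0.1. The number of arrays limits the precision.

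Members and lists were chosen with earlier results of these data known. Named are all members, all measured neighbours, up to 3 genes per list that passed (smallest p at 50 µg/ml), and the 6 most and 4 least similar genes by r. Slc39a6, Slc30a9, Lcn2 and genes given as examples at 1 µg/ml were picked once their values were known. Alternatives were another normalization (quantile or median), robust moderation, array weights, fits with only the groups compared, a block for the replicate number, single probe sets, and leaving out each array.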

Additional observations from a re-analysis of the deposited data

How the results depend on the processing

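The limits are the number of arrays and a table without levels, so dim probe sets could not be filtered and that alternative was not run. Where a value moved, the cause was not tested. Of the 810 member differences recomputed under the alternatives, 761 stayed on the same side of the threshold and 27 lost and 22 gained the call. The sign changed in 23, in none of which the changed value passed the threshold.

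Genes past the threshold at 1 µg/ml numbered 608, and 1139 with quantile normalization again, 1772 with array weights and 1661 with the compared groups alone. At 10 µg/ml the 0 became 15 with quantile normalization again and 90 with array weights. Between 50 and 10 µg/ml the 2091 became 3457 with array weights and 1312 with the compared groups alone, between 50 and 1 µg/ml the 3562 became 2321 with quantile normalization again, and between 10 and 1 µg/ml the 2001 became 3155 with array weights and 697 with the compared groups alone. Members past the threshold at 1 µg/ml numbered 1, but 4 with array weights and 3 with the compared groups alone. Between 50 and 10 µg/ml the 3 became 5 with array weights, and between 10 and 1 µg/ml they became 1 with the compared groups alone.

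Leaving out each array in turn gave 176 to 1282 genes at 1 µg/ml, 0 to 1 at 10 µg/ml, 1731 to 3153 at 50 µg/ml and 820 to 2694 between 10 and 1 µg/ml. Members then numbered 0 to 3 at 1 µg/ml, 2 to 4 at 50 µg/ml, 2 to 5 between 50 and 10 µg/ml and 1 to 4 between 10 and 1 µg/ml, and the 36 pathway and inducer genes at 50 µg/ml 26 to 39.

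The replicate numbers did not appear to pair arrays across groups, though 3 arrays a group cannot settle this. Same-numbered arrays of different groups deviated together with r from -0.233 to 0.431, over 0.1 in 6 of 18 pairs. Arrays with different numbers did so with r from -0.481 to 0.494. Of the 12 arrays, 5 correlated best with their own number. With the replicate number as a block, 742, 0 and 2540 genes passed at 1, 10 and 50 µg/ml, and 2093, 3612 and 2155 between 50 and 10, 50 and 1, and 10 and 1 µg/ml. Members then numbered 1, 0, 4, 3, 3 and 3 in that order, and pathway and inducer genes 35 at 50 µg/ml.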
